A study of Mus musculus with 12 samples.

Results

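Transcripts of 9 chemokine genes and of Csf1 were followed across 12 libraries of mouse embryonic fibroblasts. The 10 genes, out of 32721 in the deposited table, are Ccl2, Ccl5, Ccl7, Cxcl1, Cxcl5, Cxcl10, Cxcl12, Cxcl16, Cx3cl1 and Csf1. They were listed by name, and the list was chosen by the levels and group differences of the deposited log2 values in these same libraries, so their levels and differences are given as a description and carry no test. All 10 passed the filter on low values.

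All libraries came from 1 cell source, MEF Vps15f/f, in which both copies of Vps15 (gene symbol Pik3r4) are flanked by loxP sites. Vps15 holds the lipid kinase Vps34 in the complexes that serve autophagy and endosomal sorting. WT stands for adeno-GFP transduction and Vps15KO for adeno-CRE transduction, which brings in the recombinase, and both kinds of cells were collected 5 days afterwards. The adenoviruses come from the protocol. The libraries themselves are called pLEX_GFP or pLEX_CRE, and pLEX is not explained in the labels. Each kind was either left in basal medium (DMEM with 4.5 g/L glucose and 10% serum) or moved for 2 h to EBSS, a salt solution without amino acids, which gives 4 groups of 3 libraries. All WT cells thus carry the floxed alleles and a virus, loss of Vps15 cannot be told apart from the presence of CRE, and the loss of amino acids cannot be told apart from that of the rest of the growth medium. No label says whether the replicates were separate cultures, so errors and p-values cover the spread between these libraries, which may be technical.

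Chemokines are small secreted proteins that guide leukocytes along gradients, and each binds one or a few receptors that span the membrane and couple to G proteins. CC chemokines such as Ccl2 and Ccl7 draw monocytes, Ccl5 draws T cells and monocytes, the CXC ligands of Cxcr2 (Cxcl1 and Cxcl5) draw neutrophils, and Cxcl10 draws activated T cells through Cxcr3. Cxcl12 is made constitutively by stromal cells, Cxcl16 and Cx3cl1 are made as membrane-bound proteins that proteases release, and Csf1 keeps macrophages alive through Csf1r. Many inducible chemokine genes carry sites for NF-kB, called kappaB motifs, and Cxcl10 also carries an interferon-stimulated response element (ISRE), bound by interferon regulatory factors.

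Upstream sequences matched 5 of the 10 genes in the RefSeq promoter table (build GRCm38.p6). Cxcl10, Cxcl1, Csf1 and Cxcl12 are shown, the first 2 as genes that were higher in Vps15KO cells in both media, Cxcl12 as the gene that was lower in both, and Csf1 as one that differed little. Ccl2, Ccl5, Ccl7, Cxcl5 and Cxcl16 are named only. Each line is the 250 bases before the annotated start on the gene's strand, 5′ to 3′, with kappaB and ISRE matches in capitals. The Cxcl10 stretch is chr5:92348890-92349139 (minus strand), that of Cxcl1 is chr5:90890995-90891244 (plus), that of Csf1 is chr3:107760470-107760719 (minus) and that of Cxcl12 is chr6:117168285-117168534 (plus).
Cxcl10: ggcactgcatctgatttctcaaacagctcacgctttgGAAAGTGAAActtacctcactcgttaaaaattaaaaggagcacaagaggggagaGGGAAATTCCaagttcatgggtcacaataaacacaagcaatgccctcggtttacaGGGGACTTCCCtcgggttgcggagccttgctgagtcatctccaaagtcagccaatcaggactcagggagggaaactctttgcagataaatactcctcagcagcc
Cxcl1: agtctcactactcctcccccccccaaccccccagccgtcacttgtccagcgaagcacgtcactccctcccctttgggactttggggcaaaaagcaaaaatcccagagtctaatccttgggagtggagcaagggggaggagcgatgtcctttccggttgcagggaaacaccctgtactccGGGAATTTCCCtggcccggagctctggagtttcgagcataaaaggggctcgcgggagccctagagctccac
Csf1: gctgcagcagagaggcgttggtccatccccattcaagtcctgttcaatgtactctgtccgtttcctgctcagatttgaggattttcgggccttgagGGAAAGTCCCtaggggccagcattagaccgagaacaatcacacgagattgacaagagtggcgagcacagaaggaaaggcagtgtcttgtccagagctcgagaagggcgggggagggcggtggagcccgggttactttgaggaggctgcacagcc
Cxcl12: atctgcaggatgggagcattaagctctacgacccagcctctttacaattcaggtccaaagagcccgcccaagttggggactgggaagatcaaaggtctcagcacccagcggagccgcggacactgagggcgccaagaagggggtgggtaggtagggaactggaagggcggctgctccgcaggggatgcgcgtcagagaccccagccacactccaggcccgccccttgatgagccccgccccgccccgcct

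Both strands were searched for the kappaB consensus, the ISRE core (GAAA, then 2 free bases, then GAAA), the AP-1 site (TGANTCA) and TATAAA. Cxcl10 held an ISRE match 213 to 204 bases before the start, a kappaB match at 159 to 150, overlapping kappaB matches at 104 to 94 and an AP-1 match at 74 to 68. Cxcl1 held kappaB matches on both strands that overlap between 71 and 61 bases before the start. Csf1 held a single kappaB match, on the opposite strand, at 154 to 145. Cxcl12 held none of the 4 motifs, and Cx3cl1, the other gene with an entry, held only TATAAA, directly before the annotated start. Among 32851 RefSeq windows of the same length, 7.25% held a kappaB match, 2.98% an ISRE match, 6.75% an AP-1 match and 12.4% TATAAA, and 0.164% held both kappaB and ISRE matches as Cxcl10 does. These are letter matches in 1 window per gene and no binding was measured.

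**Figure D1:**
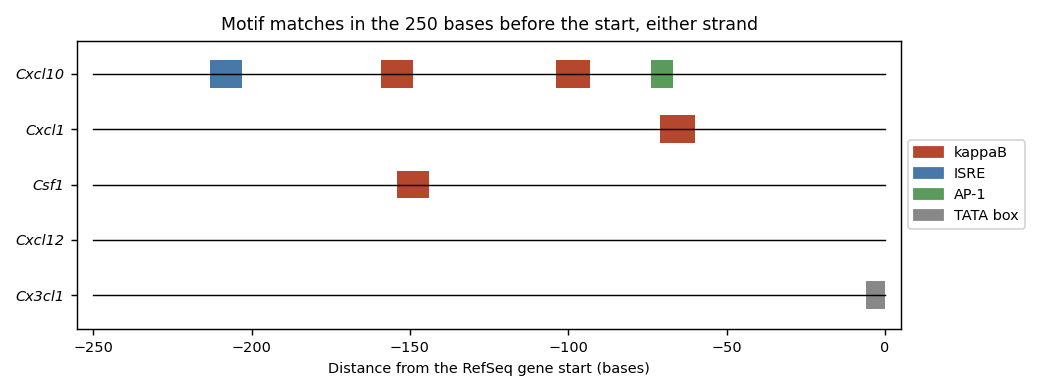
Motif matches on either strand in the 250 bases before the RefSeq start of 5 genes (x axis, bases from the start; colours mark the motif). Cxcl10 carries kappaB, ISRE and AP-1 matches, Cxcl1 and Csf1 kappaB alone, Cx3cl1 TATAAA alone and Cxcl12 none.

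Libraries held 21278921 to 21698584 reads in genes. In WT basal medium, replicate 2 stood apart: its reads gave a chi-square of 20.04 and 19.1 per gene beside replicates 1 and 3, and those gave 3.03 beside each other. Of the WT EBSS libraries replicate 1 stood apart in the same way, at 7.73 and 11.1 where the remaining pair gave 3.65. The targeted gene Pik3r4 went from 875 ± 10.3 normalized counts in WT to 658 ± 36.7 in Vps15KO without starvation (mean ± SD, n = 3; 75.1% of WT) and from 895 ± 62.7 to 632 ± 35.9 with it (70.7%). These values count reads over the whole gene and give no protein level. Of 10 fibroblast markers Col1a1, Col1a2, Col3a1 and Vim were abundant, and Thy1 was at 0 to 3.18 counts. Their summed level was 460186 to 485273 normalized counts in WT basal and 399360 to 452258 in WT EBSS libraries, but 214475 to 224235 in Vps15KO basal and 196349 to 209680 in Vps15KO EBSS libraries, and 8 of the 9 tested were lower in Vps15KO in each medium (beside 29.2% of all genes lower in basal medium and 27.8% in EBSS). Of 12 macrophage and leukocyte markers 9 stayed under 10 reads in each group and Cd3e was at 0 throughout, while Cd68 made up most of the sum, which was 852 to 1018 normalized counts in WT and 2684 to 3906 in Vps15KO libraries. Only Cd68 and Cd14 passed the filter, and they did not go together. Cd68 was at 395% of WT in basal medium and 347% in EBSS, but Cd14 at 97.1% and 87.4%. The sum of 8 endothelial markers, led by Vwf, was 25.5 to 46.1 in WT and 112 to 134 in Vps15KO libraries. That of 8 mesothelial and smooth muscle markers was 28100 to 44236 in WT and 18054 to 22541 in Vps15KO libraries, but its genes went in both directions. Of the 7 tested, 1 was higher and 3 lower in Vps15KO in each medium. Of all genes 29.3% were higher and 29.2% lower in basal medium, and 29.4% and 27.8% in EBSS. In basal medium Acta2 was at 42.1% and Tagln at 38.7% of WT, but Des at 207% and Upk3b at 148%. That of 7 epithelial markers moved with the medium, from 1.95 to 11.8 in basal to 25.4 to 35.7 in EBSS libraries, with Krt8 highest there. The part of these markers in the chemokine results was not tested. In bulk RNA, fewer cells of a type and less RNA per cell cannot be told apart.

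Levels per kilobase of exon used the union of all annotated exons of a gene (8176 bases for Cxcl12, 960 for Ccl5). Which transcript forms were present was not measured, so the order between genes is approximate. By this measure Cxcl12 (1735 ± 187 normalized counts per kb), Ccl5 (1686 ± 241) and Csf1 (1502 ± 184) were the highest of the 10 in WT basal cells, and the libraries of neighbours in this order overlapped. Cx3cl1 (949 ± 145), Cxcl5 (726 ± 32.2) and Ccl7 (530 ± 23.6) followed with no overlap between neighbours. Cxcl1 (281 ± 45.0) and Ccl2 (276 ± 52.9) overlapped, and Cxcl10 (104 ± 20.4) and Cxcl16 (2.16 ± 1.17) closed the order. After EBSS in WT cells the order per kb was Cxcl12 (2025 ± 179), Csf1 (1598 ± 22.5), Ccl5 (1365 ± 155), Cx3cl1 (1099 ± 99.5) and Cxcl5 (506 ± 23.5), then Cxcl10 (212 ± 37.5) and Ccl2 (201 ± 17.0), which overlapped, then Cxcl1 (107 ± 4.09), Ccl7 (62.2 ± 20.3) and Cxcl16 (3.47 ± 0.962).

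In Vps15KO basal cells Ccl5 led with 20110 ± 1317 normalized counts per kb, far above Csf1 (1844 ± 48.8) and Cxcl10 (1723 ± 322), which overlapped. Cxcl12 (1036 ± 128) was next, and Ccl2 (906 ± 22.2), Cx3cl1 (873 ± 57.0), Cxcl1 (744 ± 87.4) and Cxcl5 (678 ± 74.0) each overlapped the next. Ccl7 (441 ± 54.5) and Cxcl16 (2.81 ± 1.303) came last. After EBSS in Vps15KO cells all neighbours were apart, from Ccl5 (18336 ± 1487) through Cxcl10 (2149 ± 79.0), Csf1 (1541 ± 59.3), Cxcl12 (1031 ± 52.8), Cx3cl1 (787 ± 54.7), Ccl2 (486 ± 36.4), Cxcl5 (392 ± 41.0) and Cxcl1 (204 ± 26.5) to Ccl7 (77.1 ± 8.08) and Cxcl16 (5.22 ± 1.42).

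**Figure D2:**
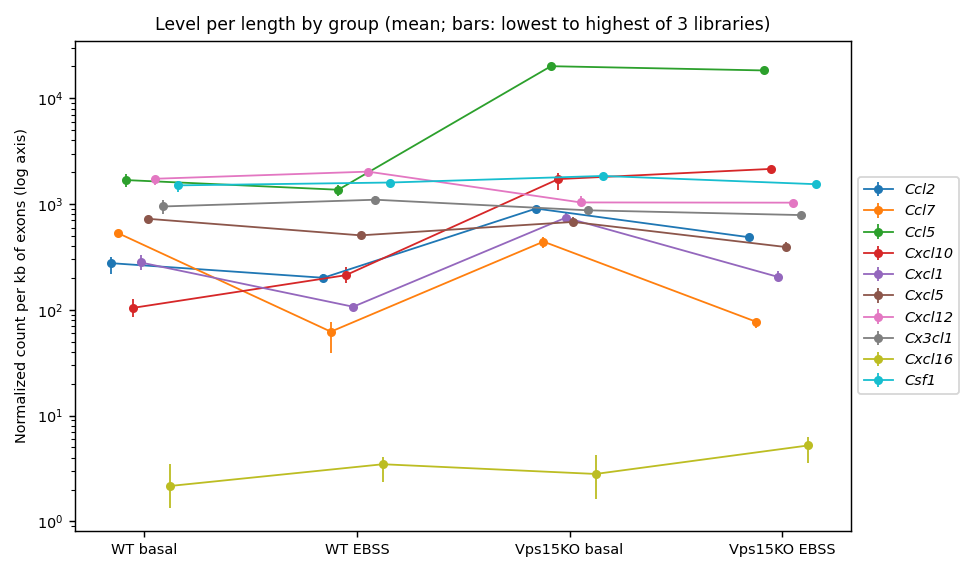
Mean level per kb of exon of the 10 genes (y axis, normalized counts per kb, log scale) in the 4 groups. Bars run from the lowest to the highest of 3 libraries and lines join the values of 1 gene. Ccl5 stands at 20110 per kb in Vps15KO basal cells against 1686 in WT, and Ccl7 drops in both genotypes in EBSS.

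Among the CC chemokines, the monocyte attractant Ccl2 (chromosome 11, 82035577 to 82037452, mm10) was higher in Vps15KO cells and lower in EBSS. It measured 335, 247 and 362 normalized counts in WT basal libraries, 222, 250.3 and 213 in WT EBSS, 1031, 1007 and 1057 in Vps15KO basal, and 506, 585 and 569 in Vps15KO EBSS. All Vps15KO libraries were above all WT libraries, and in WT cells the media overlapped because WT basal replicate 2 lay under 1 EBSS library. On the log2 scale of the deposited values Ccl2 was higher in Vps15KO by 1.65 ± 0.10 in basal medium (SE; 3.28 times the WT mean) and by 1.18 ± 0.10 in EBSS (2.42 times). The EBSS difference was -0.40 ± 0.10 in WT and -0.87 ± 0.10 in Vps15KO.

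Ccl7, which binds Ccr2 like Ccl2, lies 8260 bases downstream of it (82045712 to 82047525). Its values were 409, 446 and 419.9 in WT basal, 31.2, 57.0 and 61.2 in WT EBSS, 306, 391 and 364 in Vps15KO basal and 64.9, 66.1 and 54.3 in Vps15KO EBSS libraries. In each genotype every EBSS library was below every basal library, at 11.7% of the basal mean in WT and 17.5% in Vps15KO (log2 differences -2.61 ± 0.14 and -2.11 ± 0.14). The percentages show a larger drop than the log2 differences, because the deposited scale shrinks differences where counts are low. Between genotypes Ccl7 differed little, by -0.25 ± 0.14 in basal medium, where the groups did not overlap, and by 0.24 ± 0.14 in EBSS, where they did. Over the 12 libraries its Pearson correlation with Ccl2 was 0.38, so these neighbouring genes had different patterns.

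Ccl5, an attractant of T cells and monocytes (chromosome 11, 83525778 to 83530518), had the second largest genotype difference of the 10 in basal medium and the largest in EBSS. Its libraries measured 1388, 1851 and 1617 in WT basal, 1450.2, 1155 and 1327 in WT EBSS, 18216, 20692 and 19009 in Vps15KO basal, and 16329, 17334 and 19145 in Vps15KO EBSS. The Vps15KO mean was 11.9 times that of WT in basal medium and 13.4 times in EBSS (log2 differences 3.56 ± 0.10 and 3.72 ± 0.10). EBSS and basal libraries overlapped in both genotypes (differences -0.30 ± 0.10 in WT and -0.13 ± 0.10 in Vps15KO), and the WT difference was -0.20 without WT basal replicate 2 and -0.21, no longer called, without WT EBSS replicate 2. Ccl5 overlaps the long noncoding RNA gene Gm32650, whose group means were 0.679 to 13.4 counts.

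Among the CXC chemokines, Cxcl10 (chromosome 5, 92346638 to 92348889) differed most between genotypes in basal medium. It measured 228, 193 and 284 normalized counts in WT basal libraries, 571, 459.9 and 405 in WT EBSS, 3069, 4099.9 and 4469 in Vps15KO basal, and 4971, 4637 and 4912 in Vps15KO EBSS. No pair of groups overlapped, with WT basal lowest and Vps15KO EBSS highest. Vps15KO was 16.5 times WT in basal medium (log2 3.89 ± 0.13) and 10.1 times in EBSS (3.28 ± 0.13). The EBSS difference was 0.95 ± 0.13 in WT (2.04 times) and 0.33 ± 0.13 in Vps15KO. The latter call was lost without WT EBSS replicate 2, Vps15KO basal replicate 1 (0.18) or 2, or any 1 of the Vps15KO EBSS libraries. Art3, which overlaps Cxcl10, had a mean under 1 count in each group.

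Cxcl1, a neutrophil attractant (chromosome 5, 90891245 to 90893121), moved with both genotype and medium. It measured 517, 447 and 615 in WT basal, 209, 196 and 196 in WT EBSS, 1560.4, 1391 and 1233 in Vps15KO basal, and 359, 439.9 and 349.7 in Vps15KO EBSS libraries. None of the 4 comparisons between groups overlapped. Vps15KO was 2.65 times WT in basal medium (1.36 ± 0.11) and 1.91 times in EBSS (0.84 ± 0.11). EBSS libraries were at 38.1% of the basal mean in WT (-1.27 ± 0.11) and at 27.4% in Vps15KO (-1.79 ± 0.11).

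Cxcl5, another Cxcr2 ligand on chromosome 5 (90759298 to 90761625), differed mainly between media. Values were 1415, 1296 and 1345 in WT basal, 928, 992 and 908 in WT EBSS, 1419.8, 1163 and 1204 in Vps15KO basal and 701, 818 and 674 in Vps15KO EBSS libraries. Basal and EBSS libraries did not overlap in either genotype (-0.51 ± 0.08 in WT, -0.77 ± 0.08 in Vps15KO). The genotypes overlapped in basal medium (-0.10 ± 0.08) and were apart in EBSS, where Vps15KO was lower (-0.36 ± 0.08).

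Cxcl12, the ligand of Cxcr4 and of the scavenging receptor Ackr3 (chromosome 6, 117168535 to 117181368), was the only member that was lower in Vps15KO in both media by the call. It measured 15171, 12419.9 and 14965 in WT basal, 14891, 17646 and 17138 in WT EBSS, 9677, 7859 and 7877 in Vps15KO basal, and 7956, 8523 and 8804 in Vps15KO EBSS libraries. Every Vps15KO library was below every WT library, at 59.7% of the WT mean in basal medium (-0.74 ± 0.09) and 50.9% in EBSS (-0.97 ± 0.09). EBSS and basal libraries overlapped in both genotypes. The WT difference of 0.22 ± 0.09 lost its call without WT basal replicate 2 (0.13), WT EBSS replicate 2 (0.18) or 3, or Vps15KO EBSS replicate 2, and that of Vps15KO was 0.00 in size to 2 decimals.

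Cxcl16 (chromosome 11, 70454389 to 70459984) was at the limit of detection. It had 4 to 19 reads per library, or 5.01, 10.6 and 3.999 normalized counts in WT basal, 12.1, 7.12 and 12.2 in WT EBSS, 12.7, 4.90 and 7.84 in Vps15KO basal and 17.7, 10.8 and 18.8 in Vps15KO EBSS libraries. All 4 comparisons overlapped, with log2 differences of 0.13 to 0.38 (SE 0.16), and none was called. The EBSS difference in Vps15KO (0.38) was called without Vps15KO EBSS replicate 2 (0.49), without Vps15KO basal replicate 1 (0.50), and without WT basal replicate 2 alone or with WT EBSS replicate 1 (0.38 in each), so with so few reads the call hung on single libraries. It overlaps Zmynd15, whose group means were 2.28 to 8.54 counts, and whether the counting used the strand is not given in the sources used here.

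Cx3cl1, the membrane-tethered ligand of Cx3cr1 (chromosome 8, 94772180 to 94782427), varied little. It measured 4272, 3135 and 3776 in WT basal, 3946, 4284 and 4726 in WT EBSS, 3682, 3257 and 3348 in Vps15KO basal and 2860.4, 3131 and 3285 in Vps15KO EBSS libraries. Groups were apart only between genotypes in EBSS, where Vps15KO was at 71.6% of WT (-0.48 ± 0.09). The WT difference between media (0.22 ± 0.09) was called, and the call was lost when any library other than WT basal replicate 1 or WT EBSS replicate 1 was left out, down to 0.10 without WT basal replicate 2. The difference between media in Vps15KO was -0.15 ± 0.09. Between genotypes in basal medium it was -0.11 ± 0.09, and -0.23 with a call without WT basal replicate 2.

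Csf1, the macrophage growth factor (chromosome 3, 107741048 to 107760469), stayed within a narrow range. It measured 8690.1, 6838 and 8265 in WT basal, 8304, 8483 and 8529 in WT EBSS, 10000.1, 9485 and 9731 in Vps15KO basal, and 7888, 8039.9 and 8489.8 in Vps15KO EBSS libraries. The Vps15KO basal libraries were above those of the other 3 groups. They were 1.23 times WT basal (0.30 ± 0.07, or 0.20 without WT basal replicate 2), and EBSS libraries of Vps15KO were at 83.6% of them (-0.26 ± 0.07). The remaining pairs overlapped, with differences of 0.10 ± 0.07 between media in WT and -0.05 ± 0.07 between genotypes in EBSS.

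**Figure D3:**
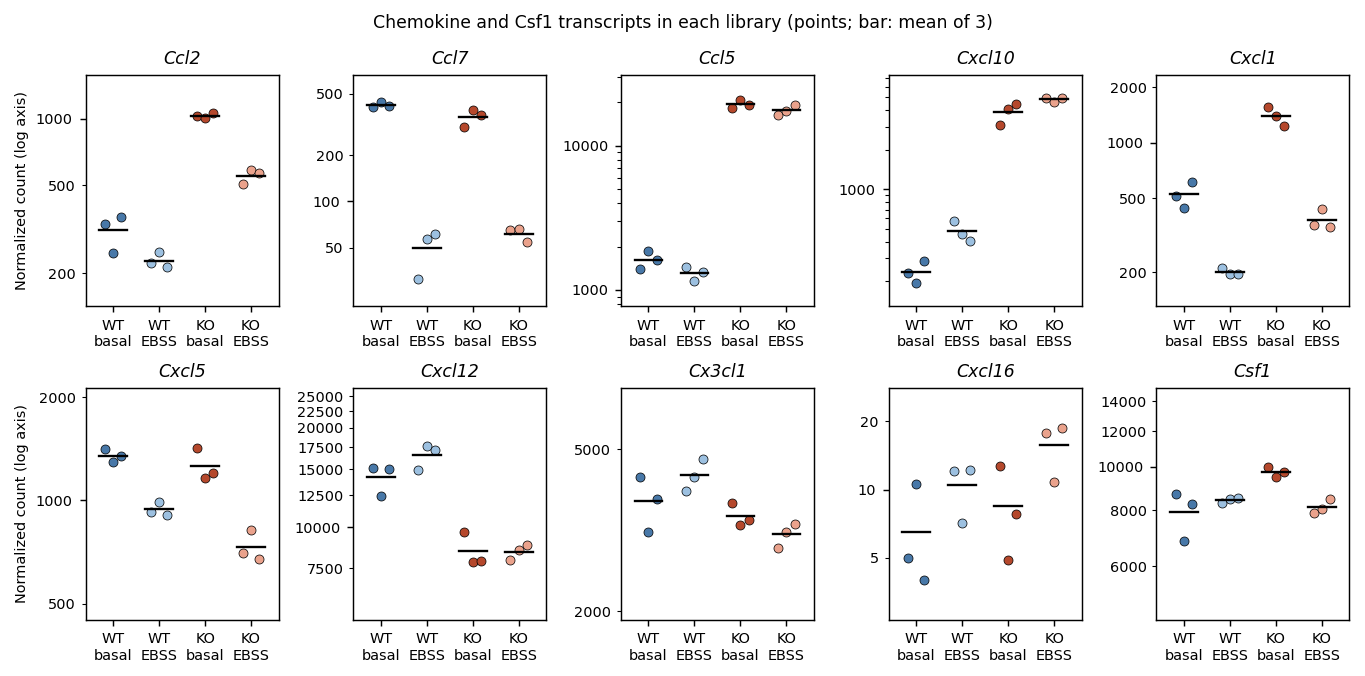
Normalized counts (y axes, log scale, each panel with its own range) of the 10 genes in the 12 libraries, by group. Points are libraries and bars the means of 3. Ccl5 and Cxcl10 sit far higher in all 6 Vps15KO libraries, Cxcl12 sits lower there, and Ccl7 drops in all 6 EBSS libraries.

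Counted over the 10 genes, 8 were called in the EBSS comparison in WT cells (3 higher, 5 lower), beside 62.7% of the 14279 genes tested (31.4% higher, 31.3% lower). In Vps15KO cells EBSS gave 6 calls (1 higher, 5 lower), beside 52.0% (25.9% and 26.1%). The genotype comparison gave 6 calls in basal medium (5 higher, 1 lower), beside 58.5% (29.3% and 29.2%), and 7 in EBSS (4 higher, 3 lower), beside 57.2% (29.4% and 27.8%). Groups did not overlap for 4, 6, 7 and 7 of the 10 in these comparisons, beside 65.2%, 63.0%, 61.7% and 66.3% of all genes. The list was drawn up with these comparisons known, so nothing is read from the counts. The median log2 difference over the 10 was -0.10, -0.20, 0.22 and 0.25, against -0.02, -0.02, -0.01 and -0.00 over all genes tested. The comparisons share groups, so they are not independent of each other.

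The interaction term, which takes the EBSS difference of WT from that of Vps15KO, was called for 4 of the 10 genes, all negative, beside 17.8% of all genes (9.55% positive and 8.24% negative). As above, the members were chosen on these libraries, so nothing is read from the count and the terms are given as a description. The term was -0.46 ± 0.15 for Ccl2, -0.52 ± 0.15 for Cxcl1, -0.61 ± 0.19 for Cxcl10 and -0.35 ± 0.10 for Csf1. For Ccl2 and Cxcl1 the EBSS values were lower than basal in both genotypes and more so in Vps15KO, for Cxcl10 they were higher in both and less so in Vps15KO, and Csf1 was lower only in Vps15KO by the call. Each call was lost when certain single libraries were left out. These were 7 of 12 for Ccl2 (all but those of WT basal, WT EBSS replicate 3 and Vps15KO EBSS replicate 2), where the term ranged from -0.57 to -0.31, and 7 for Cxcl10 (all but those of WT basal, WT EBSS replicate 3 and Vps15KO basal replicate 1), where it ranged from -0.77 to -0.49. For Cxcl1 they were WT EBSS replicate 1, Vps15KO basal replicate 1 and Vps15KO EBSS replicates 1 and 3 (-0.63 to -0.42), and for Csf1 WT EBSS replicate 2, Vps15KO basal replicate 1 and Vps15KO EBSS replicates 1 and 2 (-0.42 to -0.25). The remaining members had differences from -0.37 ± 0.13 (Cx3cl1) to 0.50 ± 0.19 (Ccl7) with no call.

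**Figure D4:**
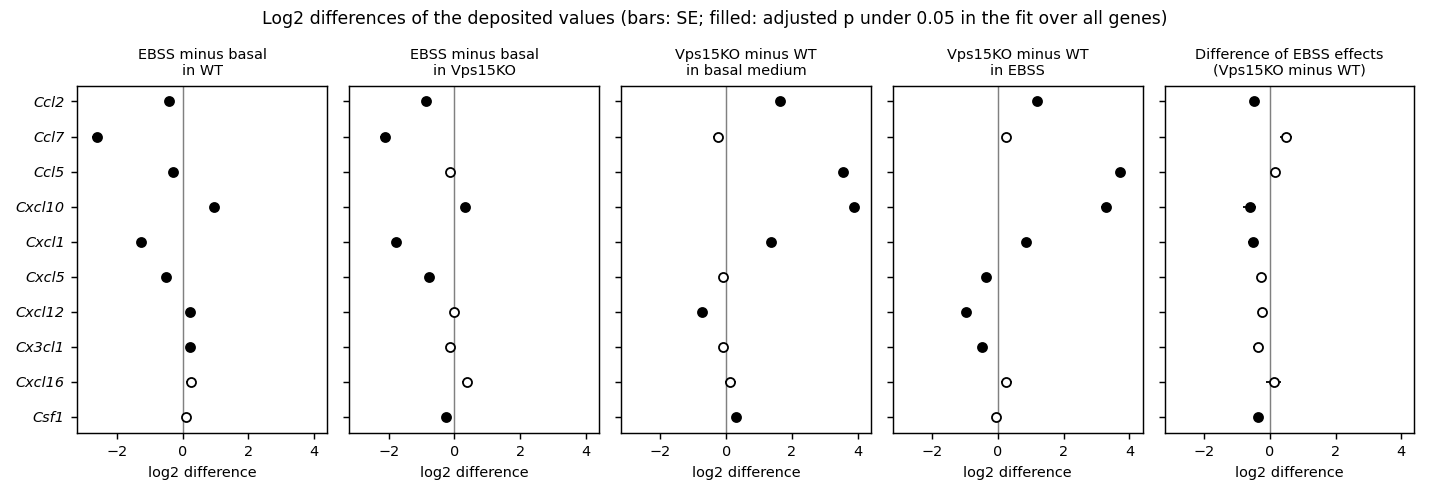
Log2 differences of the deposited values (x axes) for the 10 genes in the 5 comparisons, with standard errors as bars that are often shorter than the symbol. Filled symbols have an adjusted p under 0.05 in the fit over all genes. Ccl5 and Cxcl10 lie above 3 in both genotype panels and Ccl7 below -2 in both EBSS panels.

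The makeup of the set differed between genotypes. The 10 genes summed to 30322 ± 3003 normalized counts in WT basal, 32537 ± 1708 in WT EBSS, 48874 ± 532 in Vps15KO basal and 43846 ± 2335 in Vps15KO EBSS libraries. Ccl5 made up 5.34% of the sum in WT basal and 39.5% in Vps15KO basal cells, and Cxcl12 46.8% and 17.3%. Cxcl10 made up 0.775% and 7.94%. In EBSS the Ccl5 share was 4.03% in WT and 40.1% in Vps15KO, and the Cxcl10 share 1.47% and 11.0%. Csf1 held 26.2%, 25.9%, 19.9% and 18.6% in the 4 groups in the order above. These sums and shares are not divided by gene length, so long genes weigh more in them. Cxcl12 has 8176 bases of exon and Ccl5 960. Per kb, Cxcl12 and Ccl5 stood at 1735 and 1686 in WT basal cells and at 1036 and 20110 in Vps15KO basal cells.

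Across the 12 libraries, which share the 4 groups, 6 of the 45 pairs of members had a Pearson correlation above 0.8 and 3 below -0.8. Ccl5 and Cxcl10 were most alike (0.96), followed by Ccl2 with Ccl5 (0.90), Ccl2 with Cxcl1 (0.86), Ccl7 with Cxcl5 (0.86), Cxcl12 with Cx3cl1 (0.85) and Ccl2 with Cxcl10 (0.82). Cxcl12 ran opposite to Ccl5 (-0.97), Cxcl10 (-0.90) and Ccl2 (-0.85). These values mostly restate the group means. Of all other genes tested, the patterns most like Ccl5 were those of Ascc2 (0.997), Asns (0.996) and Got1 (0.995), and most like Cxcl10 those of Grpel2 (0.993), Lrp8 (0.993) and Sc5d (0.991). Reep4 (0.989) and Itgb3 (0.989) were among the 3 genes most like Ccl2. Cxcl1 was nearest to Etfbkmt (0.984), Ier3 (0.984) and AW209491 (0.977), and Cxcl12 to Fut11 (0.992), Fkbp14 (0.988) and Pros1 (0.988). Ccl7 was nearest to Men1 (0.991), AU040320 (0.989) and Purg (0.988), and Cxcl5 to Hps6 (0.973), Zfp839 (0.971) and Trib2 (0.969). Cx3cl1 was nearest to Snapin (0.961), Usp46 (0.941) and Pdcd7 (0.924), Csf1 to Caap1 (0.961), M6pr (0.961) and Ppwd1 (0.950), and Cxcl16 to Ykt6 (0.863), Ankmy1 (0.852) and Tspyl3 (0.848).

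The gene lists from here on were also chosen with earlier results of these data known. Genes named from them were picked by small p-values in this same fit. Their adjusted p-values, taken over all genes tested, are therefore no independent support. Most other chemokine ligands were barely expressed, and the few that were went in both directions. Of 27 listed, 22 were in the table and 9 passed the filter. Of the 9, in basal medium 4 were higher and 3 lower in Vps15KO, and in EBSS 3 were higher and 2 lower (beside 29.3% higher and 29.2% lower of all genes in basal medium, and 29.4% and 27.8% in EBSS). Cxcl15, a CXC chemokine, fell from 966 ± 31.0 normalized counts in WT to 255 ± 72.5 in Vps15KO basal cells (log2 -1.84 ± 0.16, adjusted p = 1.8e-08), and Ppbp, a Cxcr2 ligand known from platelets, from 136 ± 17.6 to 36.2 ± 6.76 (-1.41 ± 0.12, adjusted p = 1.7e-08). In EBSS they were lower by -1.38 ± 0.16 (adjusted p = 6.6e-07) and -1.18 ± 0.12 (adjusted p = 1.7e-07). Ppbp lies 6893 bases from Cxcl5, whose genotype difference in basal medium was -0.10 ± 0.08. Ccl25, a ligand of Ccr9, was higher in Vps15KO (0.57 ± 0.09, adjusted p = 4.8e-05, and 0.50 ± 0.09 in EBSS, adjusted p = 0.00017), as was Ccl9 (0.45 ± 0.11, adjusted p = 0.0022, and 0.50 ± 0.11 in EBSS, adjusted p = 0.001).

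In the EBSS comparisons 2 of the 9 other ligands fell in WT (beside 31.3% lower of all genes), and 1 rose and 1 fell in Vps15KO (beside 25.9% and 26.1%). Ccl27a was lower in both, by -0.67 ± 0.10 in WT (adjusted p = 1.6e-05) and -0.43 ± 0.10 in Vps15KO (adjusted p = 0.0017). Its reads are uncertain because the mouse genome holds close copies of it. For Ccl17 (-0.36 ± 0.15 in WT, adjusted p = 0.036) and Ccl6 (0.43 ± 0.16 in Vps15KO, adjusted p = 0.026) group means were 5.07 to 13.8 counts and the calls did not outlast the loss of single libraries (for Ccl17 WT basal replicates 1 and 2 and WT EBSS replicates 1 and 3, for Ccl6 Vps15KO basal replicates 1 and 3 and Vps15KO EBSS replicate 3).

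Of the other colony-stimulating factors, Csf2 and Csf3 had few reads and were not tested. Il34, the second ligand of Csf1r, was the only one tested. It measured 244, 269 and 238 normalized counts in WT basal, 277, 271 and 267 in WT EBSS, 526, 574 and 569.7 in Vps15KO basal, and 346, 344 and 349 in Vps15KO EBSS libraries. All Vps15KO libraries were above all WT libraries, and Vps15KO basal was highest. Il34 was higher in Vps15KO by 1.07 ± 0.07 in basal medium (adjusted p = 8.8e-10) and by 0.32 ± 0.07 in EBSS (adjusted p = 0.001), and lower in EBSS in Vps15KO by -0.64 ± 0.07 (adjusted p = 9.6e-07), while in WT the difference was 0.11 with an adjusted p of 0.21. Its interaction term was -0.75 ± 0.10 (adjusted p = 7.6e-05). Csf1 itself had a basal genotype difference of 0.30 and an interaction term of -0.35.

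The receptors mostly fell under the filter on low values, which uses the mean over all 12 libraries. Of 23 listed, 22 were in the table and only Ackr3, Csf1r and Ccr10 passed it. Ackr3, which binds and takes up Cxcl12, changed in both comparisons. It measured 448, 483 and 467 in WT basal, 1117, 1257 and 1289.6 in WT EBSS, 116, 119.6 and 138 in Vps15KO basal and 324, 316 and 322 in Vps15KO EBSS libraries. No groups overlapped, and Vps15KO levels were at 26.8% of WT in basal medium (-1.70 ± 0.08, adjusted p = 6.2e-12) and 26.2% in EBSS (-1.84 ± 0.08, adjusted p = 1.9e-12). EBSS libraries were higher by 1.34 ± 0.08 in WT (adjusted p = 1e-10) and 1.20 ± 0.08 in Vps15KO (adjusted p = 6.2e-10). Ackr3 and Cxcl12 were thus both lower in Vps15KO, and only Ackr3 differed between media without overlap. Csf1r had group means of 2.69 to 15.4 counts, with EBSS higher by 0.81 ± 0.14 in WT and 0.48 ± 0.14 in Vps15KO, the latter call lost without Vps15KO basal replicate 2. In both genotypes its basal mean lay under the limit of the filter. Csf1r thus passed only through its EBSS libraries, and these differences are a description and no test.

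NF-kB genes include the DNA-binding subunits and the inhibitors that the factor itself induces. Of 18, all tested, 10 were higher and 1 lower in Vps15KO in basal medium (median 0.38) and 12 higher and 1 lower in EBSS (median 0.47), beside 29.3% higher and 29.2% lower of all genes in basal medium, and 29.4% and 27.8% in EBSS. The EBSS comparison gave 7 higher and 3 lower in WT (median 0.12; all genes 31.4% and 31.3%) and 7 higher and 2 lower in Vps15KO (median 0.14; all genes 25.9% and 26.1%). Nfkbia, the inhibitor IkB alpha, measured 1082 ± 79.3, 1668 ± 58.4, 1197 ± 59.1 and 2791 ± 134 in WT basal, WT EBSS, Vps15KO basal and Vps15KO EBSS libraries (mean ± SD, n = 3). Tnfaip3, the deubiquitinase A20, measured 262 ± 21.5, 382 ± 37.2, 395 ± 30.3 and 986 ± 50.5 in the same order. Both rose with EBSS in Vps15KO, by 1.20 ± 0.07 (adjusted p = 5.7e-11) and 1.26 ± 0.09 (adjusted p = 1e-09), as did Rel by 1.04 ± 0.08 (adjusted p = 4.8e-09) and Rela by 0.59 ± 0.06 (adjusted p = 1.8e-07).

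Their EBSS effects were larger in Vps15KO than in WT, by 0.59 ± 0.09 for Nfkbia (adjusted p = 0.00029), 0.76 ± 0.12 for Tnfaip3 (adjusted p = 0.00032), 0.45 ± 0.08 for Rela (adjusted p = 0.001) and 0.42 ± 0.11 for Rel (adjusted p = 0.014). The interaction terms of Ccl2 and Cxcl1 were -0.46 and -0.52, and both calls were lost without certain single libraries. How they relate to the NF-kB genes was not tested. Nfkbiz and Bcl3, atypical members of the IkB family, fell with EBSS in WT (-0.95 ± 0.10, adjusted p = 1.2e-07, and -0.77 ± 0.12, adjusted p = 1.7e-05) and in Vps15KO (-0.79 ± 0.10, adjusted p = 2.1e-06, and -1.04 ± 0.12, adjusted p = 8.7e-07). Map3k14, the kinase of the noncanonical pathway, was the one gene lower in Vps15KO in basal medium (-0.95 ± 0.08, adjusted p = 2.1e-08), and was lower in EBSS too (-0.59 ± 0.08, adjusted p = 7.7e-06).

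Of 13 NF-kB targets that are not chemokines, 8 were tested. In basal medium 4 were higher and 2 lower in Vps15KO (median 0.59), and in EBSS 4 were higher and 3 lower (median 0.36). Of all genes 29.3% were higher and 29.2% lower in basal medium, and 29.4% and 27.8% in EBSS. The cytokine Il6 had group means of 5.43 ± 0.522 and 3.72 ± 0.609 normalized counts in WT and of 54.8 ± 12.7 and 45.3 ± 2.07 in Vps15KO cells in basal medium and EBSS (log2 differences 1.62 ± 0.12 and 1.59 ± 0.12, a scale that understates the change of genes with few reads). Its WT means lay under the limit of the low-value filter. Il6 thus passed the filter only through its Vps15KO libraries, and its differences are a description and no test. Lif, a cytokine of the same family, was higher by 0.98 ± 0.10 (adjusted p = 1.3e-07) and 1.33 ± 0.10 (adjusted p = 2e-09). Ptgs2, the inducible cyclooxygenase, was higher in Vps15KO by 1.04 ± 0.11 (adjusted p = 4.2e-07) and 1.90 ± 0.11 (adjusted p = 1.3e-10) and fell with EBSS in WT by 1.26 ± 0.11 on the log2 scale (adjusted p = 3.1e-08). Sod2, a mitochondrial superoxide dismutase, was higher in basal medium (0.97 ± 0.06, adjusted p = 5.5e-10) and in EBSS (0.41 ± 0.06, adjusted p = 2.4e-05). The adhesion molecule Vcam1 was lower in both (-0.31 ± 0.09, adjusted p = 0.0053, and -0.66 ± 0.09, adjusted p = 3.3e-06).

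Of 10 interferon regulatory and STAT factors, 9 were tested. Vps15KO gave 5 higher and 2 lower in basal medium (median 0.59) and 6 higher and 1 lower in EBSS (median 0.63), where all genes gave 29.3% and 29.2%, and 29.4% and 27.8%. Irf1 measured 1784 ± 113 and 3200.2 ± 39.0 in WT and Vps15KO basal libraries and 2217 ± 116 and 6059 ± 355 in EBSS, higher in Vps15KO by 0.83 ± 0.06 (adjusted p = 3.5e-09) and 1.44 ± 0.06 (adjusted p = 2.5e-12). Irf7 (0.83 ± 0.09, adjusted p = 4e-07) and Stat2 (0.79 ± 0.07, adjusted p = 1.7e-08) were also higher in basal medium, and in EBSS (1.12 ± 0.09, adjusted p = 7.7e-09, and 0.97 ± 0.07, adjusted p = 1e-09). EBSS raised Irf1 by 0.91 ± 0.06 (adjusted p = 1.4e-09) and Irf9 by 0.99 ± 0.07 (adjusted p = 1.3e-09) in Vps15KO and by 0.31 ± 0.06 (adjusted p = 0.00036) and 0.31 ± 0.07 (adjusted p = 0.00082) in WT. The interaction terms were 0.60 ± 0.09 for Irf1 (adjusted p = 0.00015) and 0.69 ± 0.10 for Irf9 (adjusted p = 9.4e-05). That of Cxcl10 was -0.61 ± 0.19, with a call lost without certain single libraries. How it relates to these factors was not tested. Irf3 fell with EBSS in WT (-1.19 ± 0.09, adjusted p = 5.7e-09) and less in Vps15KO (-0.66 ± 0.09, adjusted p = 1.3e-05), a difference of 0.53 ± 0.13 (adjusted p = 0.011; 0.34 without both WT libraries that stood apart).

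**Figure D5:**
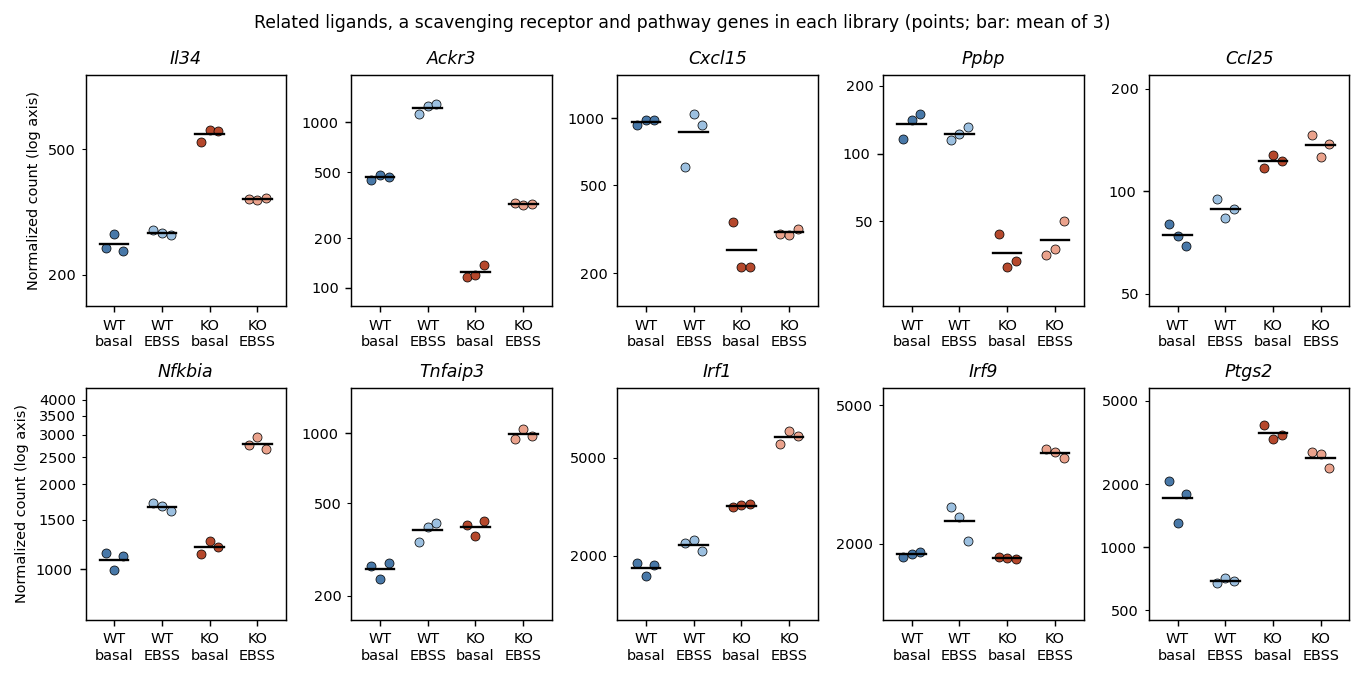
Normalized counts (y axes, log scale, each panel with its own range) of related ligands, the receptor Ackr3 and pathway genes in the 12 libraries. Points are libraries and bars the means of 3. Il34 peaks in Vps15KO basal cells, Ackr3, Cxcl15 and Ppbp are lower in Vps15KO, and Nfkbia, Tnfaip3, Irf1 and Irf9 are highest in Vps15KO EBSS cells.

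Of 9 genes for factors that set the decay of cytokine mRNAs, all tested, EBSS gave 3 higher and 3 lower in WT and 3 higher and 1 lower in Vps15KO, and the genotype gave 2 higher and 3 lower in basal medium and 3 higher and 2 lower in EBSS. Of all genes 31.4% were higher and 31.3% lower with EBSS in WT, and 25.9% and 26.1% in Vps15KO, and with the genotype 29.3% and 29.2% in basal medium and 29.4% and 27.8% in EBSS, so most of these counts lie near the share over all genes. Zfp36, tristetraprolin, fell with EBSS by 0.91 ± 0.09 on the log2 scale in WT (adjusted p = 1.6e-07) and by 0.55 ± 0.09 in Vps15KO (adjusted p = 8.5e-05). The roquin genes Rc3h1 and Rc3h2 rose in WT by 0.65 ± 0.10 (adjusted p = 3e-05) and 0.56 ± 0.07 (adjusted p = 1.2e-06), and in Vps15KO by 0.47 ± 0.10 (adjusted p = 0.001) and 0.43 ± 0.07 (adjusted p = 3.8e-05). The RNase gene Zc3h12a was higher in Vps15KO by 0.82 ± 0.09 in basal medium (adjusted p = 3.6e-07) and 0.80 ± 0.09 in EBSS (adjusted p = 5e-07).

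Of 9 genes for proteases that cut chemokines or release membrane-bound ones, with the rhomboid cofactors of Adam17, 8 were tested. In Vps15KO 4 were higher and 3 lower in basal medium and 3 higher and 4 lower in EBSS, beside 29.3% higher and 29.2% lower of all genes in basal medium, and 29.4% and 27.8% in EBSS. Mmp14, a membrane matrix metalloproteinase, fell from 35133 ± 1702 to 21242 ± 809.5 normalized counts in basal medium (-0.72 ± 0.06, adjusted p = 1.9e-08) and from 37435 ± 486 to 17655 ± 672 in EBSS (-1.08 ± 0.06, adjusted p = 8.7e-11). Mmp2 was lower by -0.61 ± 0.07 in each medium (adjusted p = 4.1e-07 and 3.3e-07). Of the rhomboid cofactors, Rhbdf1 was lower (-0.80 ± 0.07 in each medium, adjusted p = 2.6e-08 and 2.4e-08) and Rhbdf2 higher (0.50 ± 0.08, adjusted p = 2.1e-05, and 0.82 ± 0.08, adjusted p = 4e-08). Adam17 and Adam10, the sheddases of Cx3cl1, rose with EBSS in WT by 0.35 ± 0.07 (adjusted p = 0.00026) and 0.30 ± 0.07 (adjusted p = 0.0013). In Vps15KO neither was called, at 0.15 ± 0.07 (adjusted p = 0.074) and -0.15 ± 0.07 (adjusted p = 0.081).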

How the data were processed

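Poly-A RNA was sequenced in read pairs with strand marking. The submitters' processing notes name the build mm10 and, without their roles, the tools featureCounts, limma, STAR 2.7.10b and DESeq2. The values the authors deposited are on a log2 scale, after a transformation that evens out the variance of scaled counts. For genes with few reads, differences on this scale are smaller than the log2 ratio of the counts. The transformation was inverted from its floor, the value of a count of 0, and 100% of values gave whole reads within 0.001, with size factors (1 per library) of 0.945 to 1.02. These reads divided by the size factor are the normalized counts used here. A count of 0 allows up to 3 reads, for counting error only.

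The 14279 genes whose mean lay 1 or more over the floor were fitted on the deposited log2 values with limma 3.58.1 in R 4.3.3, a mean per group over all 12 libraries, empirical Bayes with a variance trend (8 residual and 10.2 prior degrees of freedom), two-sided, Benjamini-Hochberg over all genes, call at adjusted p under 0.05. Exon lengths are unions of GENCODE exons for mm10, and gene positions and distances are those of the RefSeq annotation. The members and gene lists were chosen with earlier results of these data known. Named genes were the members, Pik3r4, up to 4 tested genes with the smallest p of each list and comparison, and the 3 genes most correlated with each member, without predicted genes; 1 of these is not reported here. Ccl1, Ccl12, Ccl19, Ccl24, Cxcl14 and Ackr1 were not analysed here. The labels do not say that a replicate number marks a shared culture or day, so no block was used. Deviations of same-numbered replicates from their group means correlated at 0.0825 to 0.260 between genotypes in basal medium and 0.0390 to 0.124 in EBSS. Between media they correlated at -0.155 to 0.0125. Tried beside this were a replicate block, 2 other low-value filters (none, or 3 over the floor), equal library medians, quantile normalization, log2 of normalized count plus 1, voom on the reads, removal of length and GC trends, only the groups compared, adjusted p under 0.01, both libraries that stand apart left out, and each library left out in turn.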

Additional observations from a re-analysis of the deposited data

Results flagged for a closer look

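The EBSS effect differed between genotypes by the interaction term of the limma fit for 17 of the genes described, given as log2 differences, Vps15KO minus WT. Of all genes tested 17.8% were called for this term. The genes described were picked by small p-values in the same fit or were members, so nothing is read from the count. Among the members these were Ccl2 (-0.46), Cxcl1 (-0.52), Cxcl10 (-0.61) and Csf1 (-0.35), which were chosen on these libraries, so that their terms are a description and no test. None of the 4 was called without the low-value filter or at adjusted p under 0.01. The effect was also more negative for Il34 (-0.75), Sod2 (-0.56), Adam10 (-0.45) and Mmp14 (-0.36). It was more positive for Nfkbia (0.59), Tnfaip3 (0.76), Rela (0.45), Rel (0.42), Ptgs2 (0.86), Irf9 (0.69), Irf1 (0.60), Irf3 (0.53) and Rhbdf2 (0.33). The Rhbdf2 call was lost when any of 10 of the 12 libraries was left out, and it reached 0.28 to 0.39 over all 12 omissions. Of these genes, each of the 4 members also lost its call for some omitted libraries, and Il34, Nfkbia, Tnfaip3, Rela, Rel, Ptgs2, Sod2, Irf1, Irf9, Irf3, Adam10 and Mmp14 lost theirs for none of the 12.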

How the results depend on the processing

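For the interaction term no member was called without the low-value filter (0) or at adjusted p under 0.01 (0), and 2 with voom, against 4. At adjusted p under 0.01 this term was called in 1227 genes against 2540, and 5 members were called for EBSS in WT against 8. Leaving out 1 library in turn gave 8142 to 8898 genes and 5 to 8 members for EBSS in WT, 6273 to 8331 and 5 to 7 for EBSS in Vps15KO, 7380 to 8332 and 6 to 7 for Vps15KO in basal medium, 7325 to 9016 and 7 to 8 in EBSS, and 1863 to 3175 and 0 to 5 for the interaction term. With the replicate block 8939, 7391, 8358, 8140 and 2535 genes were called in the 5 comparisons, against 8954, 7419, 8353, 8174 and 2540. Of 50 member differences none changed sign on a call. Leaving out a library ended 43 calls, made 9 and left 548 differences called or not called as before. The other alternatives ended 30, made 13 and left 492. Differences with no call could change sign, as that of EBSS for Csf1 in WT did (-0.006 to 0.17 with 1 library left out). With length and GC trends removed the EBSS difference of Hnrnpd in Vps15KO went from 0.23 to -0.0433. In the same setting the WT EBSS calls of Ccl5 (-0.07) and Cxcl12 (0.04) were lost and basal genotype calls of Ccl7 (-0.31) and Cxcl5 (-0.22) appeared. Without both libraries that stand apart, the Cxcl10 difference was -0.37 and not called, the Cx3cl1 effect of EBSS in WT was 0.16 and not called, and its genotype difference in basal medium was -0.23 and called. The causes were not tested. Depth limits Cxcl16, with 4 to 19 reads per library.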

Other observations

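Some genes of the lists fell under the filter on low values and were not tested, and those named here were picked after their values were seen. Xcr1, the receptor of lymphotactin, measured 0 to 1.06 normalized counts in WT basal and 0 to 1.95 in Vps15KO basal libraries, but 19.3 to 23.1 in WT EBSS and 17.8 to 22.6 in Vps15KO EBSS libraries, so all 6 EBSS libraries were above all 6 basal ones. Cxcl11, an interferon-inducible ligand of Cxcr3 like Cxcl10, measured 0 to 1.06 in WT basal and 0 to 1.01 in WT EBSS libraries, against 4.90 to 6.84 in Vps15KO basal and 7.87 to 10.9 in Vps15KO EBSS libraries. Cxcl9, a further Cxcr3 ligand, stayed at 0 to 2.12 counts in all 4 groups. Cd40, a costimulatory receptor, measured 0 to 1.06 in the WT libraries and 3.91 to 8.89 in the Vps15KO libraries. Cxcl2, the neighbour of Cxcl1 at 10778 bases, was at 0 in WT EBSS and reached 3.93 to 7.89 only in Vps15KO EBSS libraries. These are a few reads per library.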
